A study of Homo sapiens with 30 samples.

Results

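Mitochondrial ribosomal protein genes were followed across 12 RNA-seq libraries of T47D, an established human breast cancer cell line of luminal type that carries the progesterone receptor. Members were the genes whose symbol is MRPL or MRPS with a number, with or without a letter A to C on MRPS names, and pseudogenes were left out. Of 60554 annotated genes, 78 fitted, 49 with MRPL names and 29 with MRPS names. All 78 passed the filter on low counts in every fit, and the lowest count of any member in any library was 89. The study used small interfering RNA against CEBPA, the gene for the transcription factor C/EBP alpha, in cells given a progestin, and its title concerns growth inhibition by progestins.

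The libraries form 6 groups of 2. The groups are siCEBPA with progestin, siCEBPA untreated, siControl with progestin, siControl untreated, ICRF with progestin and ICRF untreated. All are T47D cells of passages 18 to 20. The sample titles name progesterone, while the protocol gives the hormone as R5020, a synthetic progestin, at 10 nM. Before hormone, the cells of the siRNA libraries were held for 4 hours in a short arrest. Their treated libraries carry the time label T360 and their untreated libraries T0, without a unit, so hormone and time label cannot be told apart there. The ICRF libraries have no siRNA, arrest or time in their titles, and the labels give neither the compound, nor its dose, nor its time. Compounds named ICRF are known as inhibitors of topoisomerase II, and the series' design names inhibition of Topo2a. Nothing in the labels tells separate cultures from repeat libraries, so each p-value here is about the spread of 2 libraries a group and that spread may be technical.

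A mitochondrion has its own ribosome, which translates the few proteins that its own DNA encodes, all of them parts of the respiratory chain and ATP synthase. Its 2 ribosomal RNAs come from mitochondrial DNA, but its proteins are encoded in the nucleus, made in the cytosol and imported. MRPL proteins build the large subunit, which joins amino acids, and most MRPS proteins build the small subunit, which reads the mRNA. Some members descend from bacterial ribosomal proteins, and others were added in the mitochondrial lineage. NRF1, GABP (an ETS-family factor) and YY1 are known regulators of nuclear genes for mitochondrial proteins. Some names mislead: MRPS18A and MRPS30 belong to the large subunit, and MRPS36 is a subunit of the alpha-ketoglutarate dehydrogenase complex.

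Promoter windows of 300 bases from RefSeq (GRCh38.p14) were found for 69 of the 78 genes and were compared with 27305 promoters in all. The letters CCGGAAG, the core bound by ETS factors, on either strand, stood in 29 of the 69 windows (42%), against 10.7% of all promoters. The letters ATGGCGG, the core of a YY1 motif, stood in 24 of 69 (34.8%), against 5.72% of all. GCGCATG, part of an NRF1 motif, stood in 7 (10.1%, against 4.67% of all). CACGTG, an E-box, and TTGCNNAA, a C/EBP motif, stood in 6 windows each (8.7%), against 7.43% and 10.6% of all promoters. ACANNNTGT, the palindrome of progesterone receptor elements, stood in 0 of 69, against 5.45% of all. No listed motif overlapped another in the windows printed here. A match is a description of letters only.

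The windows below belong to genes on which the results turn. MRPS10 fell with progestin in all 3 settings. MRPL49 and MRPS26 had the largest rises in siControl cells. With CEBPA siRNA, MRPS34 had the largest called rise in untreated cells and MRPL34 the largest fall in both states. Capitals mark the listed motifs. MRPS10 (chr6:42217812-42218111, minus strand) holds the C/EBP letters, then an ETS core, then the YY1 letters. MRPL49 (chr11:65121933-65122232, plus strand) holds an E-box, MRPS26 (chr20:3045802-3046101, plus strand) an ETS core and MRPS34 (chr16:1773085-1773384, minus strand) 3 ETS cores and the YY1 letters. MRPL34 (chr19:17292323-17292622, plus strand) holds none of the listed motifs and so has no capitals.
MRPS10: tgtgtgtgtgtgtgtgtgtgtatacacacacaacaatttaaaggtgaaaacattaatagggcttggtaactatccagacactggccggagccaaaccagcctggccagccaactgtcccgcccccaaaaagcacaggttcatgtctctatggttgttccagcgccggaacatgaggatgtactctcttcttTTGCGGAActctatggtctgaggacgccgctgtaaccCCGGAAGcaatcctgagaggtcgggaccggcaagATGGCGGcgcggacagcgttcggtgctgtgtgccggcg
MRPL49: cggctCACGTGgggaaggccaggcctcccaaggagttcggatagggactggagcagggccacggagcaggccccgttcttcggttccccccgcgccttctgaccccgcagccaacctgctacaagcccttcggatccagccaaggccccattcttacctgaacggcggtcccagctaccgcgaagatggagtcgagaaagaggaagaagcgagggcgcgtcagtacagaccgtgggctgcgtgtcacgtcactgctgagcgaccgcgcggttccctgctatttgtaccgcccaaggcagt
MRPS26: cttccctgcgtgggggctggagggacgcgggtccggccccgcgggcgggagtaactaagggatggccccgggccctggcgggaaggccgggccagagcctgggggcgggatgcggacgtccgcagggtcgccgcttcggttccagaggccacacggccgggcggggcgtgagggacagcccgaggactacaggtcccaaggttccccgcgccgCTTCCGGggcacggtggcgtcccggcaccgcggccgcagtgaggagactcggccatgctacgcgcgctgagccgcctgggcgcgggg
MRPS34: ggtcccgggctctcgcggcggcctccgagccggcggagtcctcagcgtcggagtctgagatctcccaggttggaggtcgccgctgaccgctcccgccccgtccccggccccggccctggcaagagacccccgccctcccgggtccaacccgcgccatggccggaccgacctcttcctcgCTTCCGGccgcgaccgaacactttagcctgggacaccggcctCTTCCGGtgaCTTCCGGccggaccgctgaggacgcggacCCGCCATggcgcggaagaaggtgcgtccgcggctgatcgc
MRPL34: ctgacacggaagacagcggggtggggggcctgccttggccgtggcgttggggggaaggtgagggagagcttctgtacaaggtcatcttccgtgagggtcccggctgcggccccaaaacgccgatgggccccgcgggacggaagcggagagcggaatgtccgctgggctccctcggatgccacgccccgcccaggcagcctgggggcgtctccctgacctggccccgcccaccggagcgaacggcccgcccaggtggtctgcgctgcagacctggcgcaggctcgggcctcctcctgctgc

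Calls were counted by motif among the 69 genes with a window. In siControl cells, 10 of the 29 genes with an ETS core rose with progestin, and 19 of the 40 genes without it did. For the YY1 letters the rises were 11 of 24 with them and 18 of 45 without. Over all genes tested 29.2% rose in that contrast. With CEBPA siRNA in untreated cells, 5 of the 6 genes with the C/EBP letters fell, and 34 of the 63 without them did. Over all genes 24% fell there. In progestin-treated cells the falls were 3 of 6 with the letters and 28 of 63 without, while 22.1% of all genes fell. These counts were not tested.

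Library totals ran from 57364785 to 148624099 counted read pairs, and the deepest library was siControl untreated replicate 2. The next deepest siRNA library held 70704799. CEBPA fell to 10.7 and 12.1 CPM (read pairs per gene, scaled to the library size with TMM factors) in siCEBPA untreated cells, against 47.7 and 54.4 CPM in siControl untreated cells. In progestin-treated cells it was at 57.5 and 62.2 CPM with siCEBPA, against 207 and 204 CPM with siControl. All 8 luminal epithelial markers were expressed in every library, with EPCAM at 145 to 215 CPM. Of 8 markers of other cell types, 7 stayed at or under 2.63 CPM, with KRT14, PECAM1 and PTPRC at 0 in at least 1 library, while COL1A1 stood at 25.6 to 69.1 CPM. Their sum was 31.9 and 35.2 CPM with progestin and 28.9 and 32.5 CPM untreated in ICRF cells, and 57.5 to 71.9 CPM in the siRNA libraries. KRT5, a basal keratin, was called higher with progestin in all 3 settings, at 0.47 to 2.11 CPM with progestin and 0 to 0.0158 CPM untreated. With progestin 8 of the 8 luminal markers were called lower in ICRF cells (median log2 change -1.57), against 30% of all genes. In siCEBPA cells 6 were called lower (-0.48), against 28.4% of all genes, and in siControl cells 5 (-0.60), against 29.3%. In each of the siRNA conditions 1 was called higher, against 29.9% of all genes in siCEBPA and 29.2% in siControl cells. FOXA1, a luminal transcription factor, had 69.7 and 76.4 CPM with progestin, against 431 and 451 CPM untreated in siControl cells. KRT19, a luminal keratin, had 4084.0 and 4427.2 CPM, against 2190.3 and 2419.9 CPM. The luminal sum was 4342.4 and 4588.1 CPM with progestin, against 9777.2 and 9834.1 CPM untreated in ICRF cells. It was 6183.9 and 6481.9 CPM, against 6696.8 and 6727.8 CPM in siCEBPA cells, and 8083.3 and 8733.3 CPM, against 7777.6 and 8232.2 CPM in siControl cells. The part of these markers in the members' results was not tested.

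Members spanned a wide range of levels. They held 0.5097% to 0.5973% of all counts in a library, and single members stood between 1.2 and 321 CPM. Per kilobase of exon, the mean level over the 6 groups was highest for MRPL47, a protein of the large subunit near the exit of the nascent chain, at 127 CPM per kb. MRPL15 followed at 110, MRPS18B at 107 and MRPS35 at 100 CPM per kb. The median member had 20 CPM per kb. At the low end stood MRPL38 with 2.11, MRPL53 with 1.55 and MRPS24 with 0.719 CPM per kb. Those 3 share exonic bases with another gene on the same strand (37.5%, 45.2% and 23.2% of their exonic length), so their counts are uncertain. The same holds for 12 further members, MRPL12 most of all (68.2%).

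The summed level of the 78 genes moved with each factor under TMM scaling, which sets the bulk of genes to no change. In siCEBPA cells it was 5339.0 and 5330.0 CPM with progestin, against 4735.5 and 4626.8 CPM untreated. In siControl cells it was 6025.5 and 5928.4 CPM with progestin, against 5314.6 and 5268.2 CPM untreated. In ICRF cells it was 5629.9 and 5576.8 CPM with progestin, against 5934.6 and 5782.3 CPM untreated. The groups did not overlap in any of these 3 hormone contrasts. By library totals alone the hormone difference nearly vanished in both siRNA conditions. It was then 5189.9 and 5184.1 CPM with progestin, against 5171.1 and 5096.8 CPM untreated in siCEBPA cells, and 5450.2 and 5389.4 CPM, against 5436.6 and 5334.9 CPM in siControl cells. In bulk RNA, fewer cells of a type and less RNA per cell cannot be told apart.

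**Figure D1:**
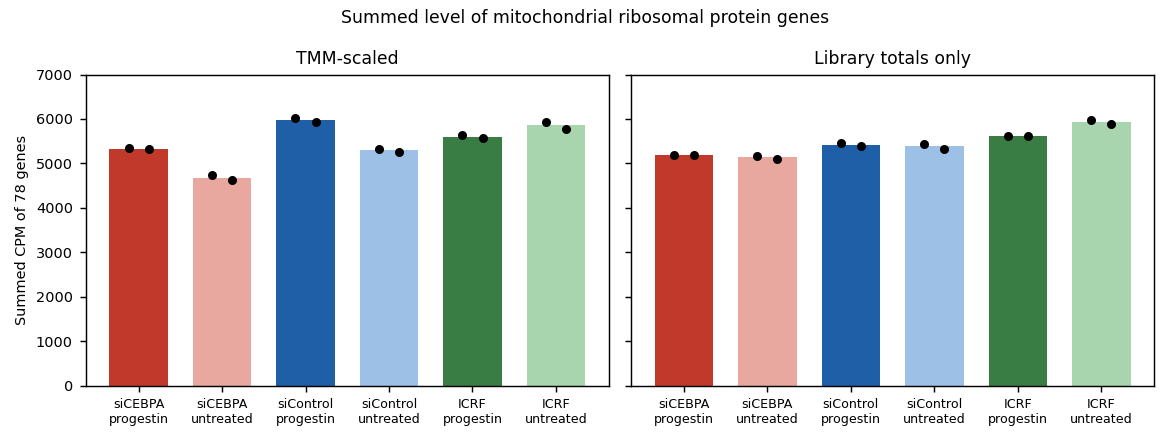
Summed CPM of the 78 genes in each library, scaled with TMM factors (left) and by library totals only (right). Bars are means of 2 libraries, and points are the libraries. Under TMM the progestin bars lie above the untreated bars in both siRNA conditions and below them with ICRF, while by library totals the difference shrinks to 5189.9 and 5184.1 against 5171.1 and 5096.8 CPM in siCEBPA cells and to 5450.2 and 5389.4 against 5436.6 and 5334.9 CPM in siControl cells.

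Progestin in siControl cells was accompanied by small rises in many members under TMM scaling, while by library totals more members fell than rose. By edgeR's quasi-likelihood test at an adjusted p of 0.05, 34 of the 78 genes rose (29.2% of all genes did) and 4 fell (29.3% of all genes). The falls numbered 2 without either siControl progestin library. The median log2 change of the members was 0.13, and that of all genes was -0.03. The distance between those medians was 0.17, and 0.13 with no filter on low counts. Scaling factors shift all genes of a contrast about alike, so they could not change this distance. The direction of the counts did change with them. With no scaling factors 14 rose and 21 fell, where the median of all genes was itself at -0.19. The changes were small for this contrast: 5 members were called at 1.5-fold or more (6.41%), against 29.6% of all genes.

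MRPL49, a large-subunit protein added in the mitochondrial lineage, had 317 and 321 CPM with progestin, against 172 and 171 CPM untreated in siControl cells. The progestin libraries were the higher ones with a wide gap. Its log2 change was 0.88 with a standard error of 0.04 (adjusted p = 7.38e-12), the largest rise in the set. MRPS26, a small-subunit protein without a bacterial counterpart, had 56.5 and 57.3 CPM with progestin, against 33.5 and 36.5 CPM untreated. Its change was 0.69 with a standard error of 0.06 (adjusted p = 7.82e-08). MRPL4, which lines the exit tunnel in its bacterial counterpart, had 61.3 and 61.4 CPM, against 37.2 and 42.2 CPM untreated (log2 change 0.61). For these 3 genes the groups did not overlap. They were picked as large called rises of this contrast, so this adds nothing to the calls.

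Further rises among the named genes were MRPS23 at 0.54, MRPL55 at 0.51 and MRPS5, a protein of the mRNA entry side in bacteria, at 0.50. MRPS12, which sits at the decoding centre, was at 0.56 and MRPS24 at 0.62. The calls of both were lost when either siControl progestin library or siControl untreated replicate 1 was left out. MRPS24 had 2.87 and 2.95 CPM with progestin, against 1.54 and 2.12 CPM untreated, so its level is low.

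MRPS10, a small-subunit protein of bacterial descent, had the largest fall. It stood at 103 and 100 CPM with progestin, against 165 and 166 CPM untreated, for a log2 change of -0.72 with a standard error of 0.04 (adjusted p = 6.96e-10). The groups lay far apart, which adds nothing to the call in a gene picked for its fall. MRPS6 fell by 0.23, MRPL50 by 0.15 and MRPL10 by 0.12. The MRPL50 call was lost without each of 6 siRNA libraries in turn, and that of MRPL10 without 3 of them.

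In cells with CEBPA siRNA, members were also mostly called upward under TMM scaling, though not by library totals. There 42 members rose (29.9% of all genes did) and 2 fell (28.4% of all genes), with a member median of 0.20 against -0.03 for all genes. With no scaling factors 14 rose and 17 fell. Among the rises under TMM, 31 were shared, which is 31 of the 42 here and 31 of the 34 in siControl cells, and MRPS10 was lower in both. Across the 78 genes the changes in the 2 conditions had a Pearson r of 0.85, and across all 18351 genes tested the r was 0.86. Genes of the same libraries are not independent replicates.

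MRPL34, a small large-subunit protein of bacterial descent, rose most in siCEBPA cells. It stood at 8.28 and 11 CPM with progestin, against 4.88 and 5.55 CPM untreated, for a log2 change of 0.88 with a standard error of 0.12 (adjusted p = 1.47e-05). In siControl cells it had 28.4 and 27.7 CPM with progestin, against 24.3 and 25.7 CPM untreated, for a change of 0.15 that was not called (adjusted p = 0.2). MRPL4 at 0.72, MRPS26 at 0.70 and MRPS5 at 0.62 followed. MRPS10 fell by 0.54, with 101 and 94.7 CPM with progestin, against 141 and 142 CPM untreated. MRPS18B was the other fall, by 0.10, and its call was lost in 7 of the 8 runs without 1 library.

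**Figure D2:**
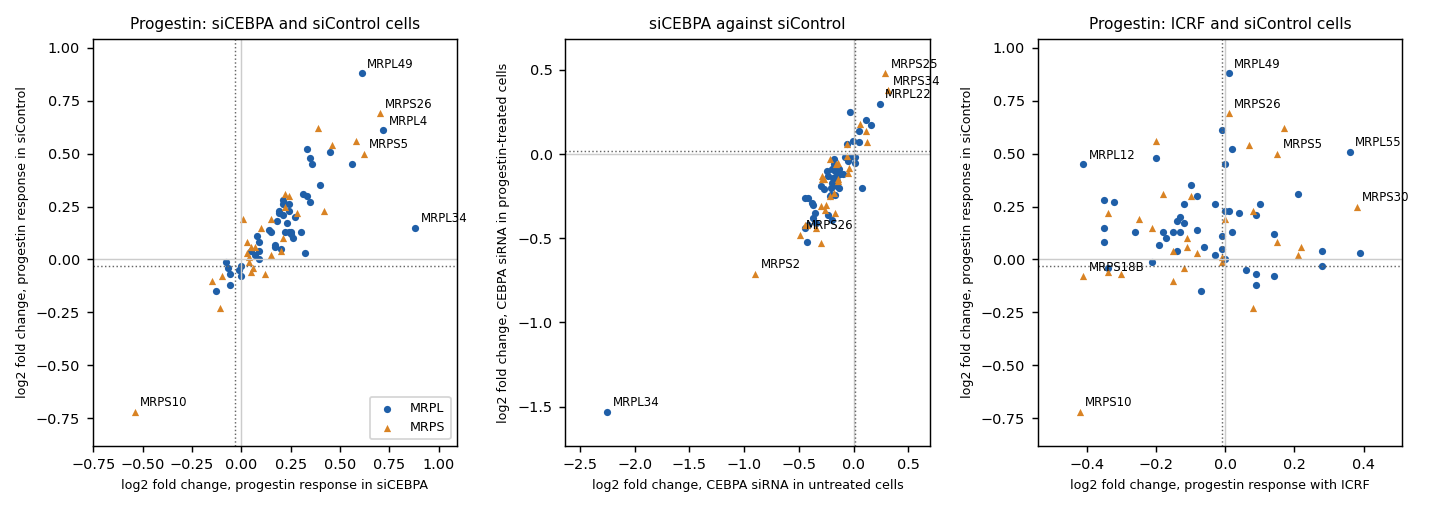
Log2 fold changes of the 78 genes in pairs of comparisons. Circles are MRPL genes and triangles MRPS genes, and dotted lines mark the median of all genes. Left, the progestin responses lie along one line (r 0.85) with MRPL34 off it. Middle, MRPL34 and MRPS2 stand apart as the largest falls with CEBPA siRNA. Right, the responses in siControl and ICRF cells have an r of 0.17, against 0.57 across all genes. Vertical position depends on scaling: without scaling factors the siControl median shifts from 0.13 to -0.02.

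The difference between the 2 responses was tested in the same fit. It was called for 1 member higher (4.19% of all genes) and 1 lower (3.06% of all genes), out of 78. MRPL34's response was larger with siCEBPA by 0.73 with a standard error of 0.15 (adjusted p = 0.00866). The call was lost without siControl progestin replicate 1 (0.74, adjusted p = 0.0546) and without siCEBPA untreated replicate 1 (0.64, adjusted p = 0.0597). MRPL49's response was smaller by 0.27 (adjusted p = 0.00439), with 276 and 275 CPM with progestin, against 181 and 177 CPM untreated in siCEBPA cells. For the other 76 members no difference was called, which does not show that they responded alike, and with the replicate number as a block 4 members were called higher and 1 lower.

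CEBPA siRNA by itself went with lower levels of many members. In untreated cells 45 of 78 members fell (24% of all genes did) and 3 rose (22.6% of all genes), with a median of -0.18 against 0.01 for all genes. In progestin-treated cells 37 fell (22.1% of all genes) and 7 rose (22.5% of all genes), with a median of -0.15 against 0.02. The rises in treated cells numbered 4 without siControl progestin replicate 1 and 3 without replicate 2. With no scaling factors the falls were 25 and 24 and the rises 11 and 11. The members called lower in both states numbered 33, of 45 in untreated and 37 in treated cells, and those called higher in both were MRPL22, MRPS25 and MRPS34. Across members the 2 sets of changes had a Pearson r of 0.91, against 0.64 across all genes. By ranks (Spearman) the values were closer, at 0.86 and 0.69.

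MRPL34 had the largest fall. In untreated cells it stood at 4.88 and 5.55 CPM with siCEBPA, against 24.3 and 25.7 CPM with siControl, for a log2 change of -2.25 with a standard error of 0.11 (adjusted p = 1.18e-09). In progestin-treated cells it stood at 8.28 and 11 CPM, against 28.4 and 27.7 CPM, for a change of -1.53 (adjusted p = 3.77e-08). In neither state did the groups overlap, which adds nothing to the called falls. In ICRF cells, with no siRNA, it stood at 22.5 and 21.3 CPM with progestin and 28.9 and 26.4 CPM untreated.

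MRPL34 lies on chromosome 19 (hg38, 17292609 to 17306843, plus strand) and overlaps ABHD8, an abhydrolase-domain gene on the minus strand from 17292131 to 17310236. The 2 RefSeq start sites are 10852 bases apart. ABHD8 exons cover 13.2% of the exonic bases of MRPL34, and counting used strand. ABHD8 stood at 2.84 and 2.25 CPM with siCEBPA, against 11 and 13.1 CPM with siControl in untreated cells (log2 change -2.24, adjusted p = 5.01e-09). In progestin-treated cells it stood at 3.43 and 4.35 CPM, against 10.1 and 9.48 CPM (-1.32). Whether the 2 falls share a source was not tested.

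Genes within 50 kb of MRPL34 that had a symbol and passed the filter were also read. Of these, NR2F6, a nuclear receptor gene 46669 bases away, fell by 0.90 in untreated and 0.77 in treated cells. BABAM1 fell by 0.20 in untreated cells. DDA1, ANO8, GTPBP3 and ANKLE1 were not called in either state. DDA1, whose gene begins 2675 bases past the end of MRPL34, had log2 changes of -0.13 and -0.05.

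MRPS2, a small-subunit protein of bacterial descent, had the next largest fall in both states. In untreated cells it stood at 61.4 and 63.2 CPM with siCEBPA, against 111 and 124 CPM with siControl (log2 change -0.90, adjusted p = 7.74e-09). With progestin it stood at 64.3 and 71.7 CPM, against 111 and 114 CPM (-0.71). The groups were separate in both states, which adds nothing to the calls in a gene picked for its fall. MRPS26 fell by 0.49 in untreated cells, with MRPL54 and MRPL41 at -0.44 each, the last losing its call without siCEBPA untreated replicate 2. In treated cells MRPL32 fell by 0.52 and MRPS24 by 0.53. MRPS24, again at low level, lost its call without either siControl progestin library (adjusted p = 0.119 and 0.145), without siCEBPA progestin replicate 1 (0.32) and under 3 other settings.

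MRPS25 and MRPS34, small-subunit proteins without bacterial counterparts, went the other way. MRPS34 had 56.3 and 57.3 CPM with siCEBPA, against 45.9 and 46.1 CPM with siControl in untreated cells (log2 change 0.31). With progestin it had 64.6 and 74 CPM, against 51 and 56.9 CPM (0.38). MRPS25 had 114 and 118 CPM, against 83.7 and 84.2 CPM in treated cells, for a change of 0.48. MRPL22 rose by 0.24 in untreated cells, a call lost without siControl untreated replicate 2 or siCEBPA untreated replicate 1, and by 0.30 in treated cells.

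**Figure D3:**
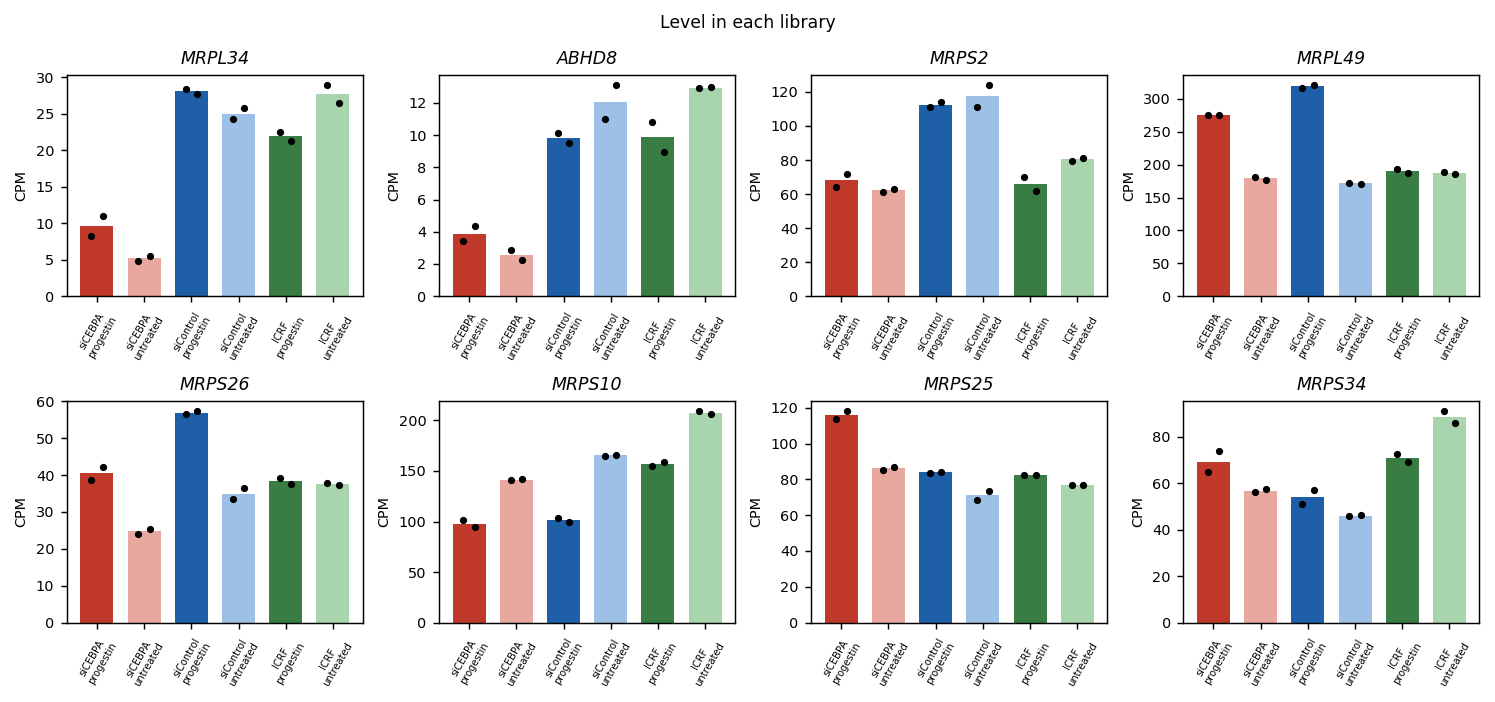
CPM of 7 mitochondrial ribosomal protein genes and of ABHD8 in each library, scaled with TMM factors. Bars are means of 2 libraries and points the libraries. MRPL34 and ABHD8 are low in all 4 siCEBPA libraries (MRPL34 4.88 to 11 CPM, ABHD8 2.25 to 4.35 CPM), and MRPL49 and MRPS26 are higher with progestin than untreated within each siRNA condition, while with ICRF their log2 changes are 0.01 each.

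In ICRF cells more members fell than rose with progestin. There 13 members rose (31.3% of all genes did) and 35 fell (30% of all genes), with a median of -0.06 against -0.01 for all genes. With no scaling factors 14 rose and 35 fell. The falls numbered 21 without ICRF untreated replicate 1, and the rises 8 without ICRF untreated replicate 2. None of the 78 was called at 1.5-fold or more, against 27.6% of all genes. Of the 34 members called higher in siControl cells under TMM, 14 were called lower in ICRF cells and 6 higher. Those 6 were MRPL2, MRPL13, MRPL15, MRPL55, MRPS5 and MRPS30. Of the 40 members not called in siControl cells, 20 were called lower in ICRF cells and 7 higher. Falls with ICRF were thus not particular to the members that rose in siControl cells. MRPS10 was called lower in both.

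MRPS10 had 155 and 159 CPM with progestin, against 209 and 206 CPM untreated in ICRF cells (log2 change -0.42, adjusted p = 1.7e-14). It was the largest fall here, as it was in siControl cells. MRPS18B, a paralogue of bacterial S18, fell by 0.41, with 171 and 160 CPM with progestin, against 222 and 214 CPM untreated. MRPL12, the flexible stalk protein that also binds mitochondrial RNA polymerase, fell by 0.41 and MRPL54 and MRPL34 by 0.35 each. MRPL12's call was lost when all 12 libraries were fitted together (adjusted p = 0.149).

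MRPS30, a large-subunit protein despite its name, had the largest rise among the members called with ICRF, at 95.2 and 93.2 CPM with progestin, against 72.5 and 71 CPM untreated (0.38). MRPL55 had 40.5 and 38.7 CPM, against 31.2 and 29.6 CPM untreated (0.36). MRPL44, which carries an RNase III-like fold, and MRPL35 rose by 0.28 each, and MRPS36 by 0.22. MRPL49 stood at 194 and 187 CPM with progestin, against 189 and 186 CPM untreated (0.01), and MRPS26 at 39.2 and 37.7, against 38 and 37.4 CPM (0.01).

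The ICRF response less the siControl response was tested with all 12 libraries in a single fit. It was negative and called for 41 members (24% of all genes) and positive and called for 6 (24.9% of all genes), with a median of -0.22 against 0.02. With no scaling factors the counts were 23 and 14. MRPL49 gave -0.87 with a standard error of 0.05 (adjusted p = 9.04e-12). MRPS26 gave -0.67, MRPL14 -0.68 and MRPS12 -0.75. MRPS6 and MRPL44 each gave 0.32, and MRPS10 0.31. MRPL12 gave -0.86 with a standard error of 0.29, and its call was lost in 10 of the alternatives run. ICRF, arrest, siRNA and time label differ together between these experiments and cannot be told apart.

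The 3 paralogues of bacterial ribosomal protein S18 occupy different places in the ribosome. With CEBPA siRNA in untreated cells all 3 were called lower, MRPS18A by 0.30, MRPS18C by 0.29 and MRPS18B by 0.14. In that contrast 57.7% of the 78 members and 24% of all genes were called lower. In progestin-treated cells, where 22.1% of all genes fell, MRPS18A fell by 0.31 and MRPS18B by 0.16. MRPS18C, at -0.13, was not called there (adjusted p = 0.19). With progestin none of them was called in siControl cells. In siCEBPA cells, where 29.9% of all genes rose and 28.4% fell, MRPS18C rose by 0.20 and MRPS18B fell by 0.10. With ICRF, where 30% of all genes fell, MRPS18B fell by 0.41 and MRPS18C by 0.15.

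Subunits and origins were compared by their counts. With progestin in siControl cells 22 of 49 MRPL genes and 12 of 29 MRPS genes rose. In siCEBPA cells these were 31 (63.3%) and 11 (37.9%), against 29.9% of all genes. Large-subunit proteins with a bacterial counterpart had 18 rises and 1 fall among 30 in siControl cells, and small-subunit ones 5 rises and 2 falls among 16. These are 60% and 31.2% rises, against 29.2% of all genes, so the small-subunit share is near that of all genes. With CEBPA siRNA in untreated cells 28 of 49 MRPL and 17 of 29 MRPS genes fell, against 24% of all genes. The difference between subunits was not tested.

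Genes that head away from a member's start within 1000 bases, called divergent partners, were read beside it. Of the 30 members with such a partner, 11 rose with progestin in siControl cells and 3 of them had a partner that rose too. Of the partners themselves 9 rose and 9 fell, and 29.2% of all genes rose and 29.3% fell. Across the pairs r was 0.12 for that contrast, and 0.35 at most over the 7 comparisons. By ranks (Spearman) these were 0.11 and 0.47, the larger values being for CEBPA siRNA in progestin-treated cells.

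Lists for other steps of mitochondrial translation were also counted, beside 29.2% of all genes that rose and 29.3% that fell with progestin in siControl cells. Of 26 tested assembly factors, 9 rose (34.6%) and 3 fell, including NOA1, a GTPase of small-subunit assembly, at 0.97. Of 17 translation factors 7 rose (41.2%) and 2 fell, with MTRFR, a ribosome rescue factor, at 1.07. Of 17 mitochondrial tRNA synthetases 9 rose (52.9%) and 2 fell, with PARS2 at 0.97. Of 13 mitochondrially encoded mRNAs 0 were called. Of 10 regulators of such genes 5 rose and 3 fell. ESRRA, a nuclear receptor of the oestrogen-related group, rose by 1.06, MYC rose by 0.59, and PPARGC1A, a coactivator of mitochondrial genes, fell by 1.89. With progestin in ICRF cells, where 31.3% of all genes rose and 30% fell, 11 assembly factors rose and 6 fell of 26, 1 mitochondrial mRNA rose and 6 fell of 13, and all 7 tested genes of a list of further mitochondrial ribosome proteins fell, a list that shares MRPL57 and MRPL58 with the members.

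The cytosolic ribosome was counted beside the mitochondrial one. With CEBPA siRNA, which went with falls of 24% of all genes in untreated and 22.1% in treated cells, of 80 tested cytosolic ribosomal protein genes 74 fell and 0 rose in untreated cells (median -0.43), and 73 fell and 0 rose in treated cells (-0.35). Among the mitochondrial members the matching falls were 45 and 37 of 78. Assembly factors had 11 falls and 2 rises of 26 in untreated cells, translation factors 9 and 1 of 17. The 5 members never called in any of the 7 comparisons were MRPL30, MRPL33, MRPL38, MRPL53 and MRPS21. The share of all genes never called was not counted, and no call does not show a steady level. With progestin MRPL38 was at 0.52 with a standard error of 0.36 in siControl cells. MRPL53 was at 0.39 with a standard error of 0.18 in ICRF cells. Both share exonic bases with another gene on the same strand.

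**Figure D4:**
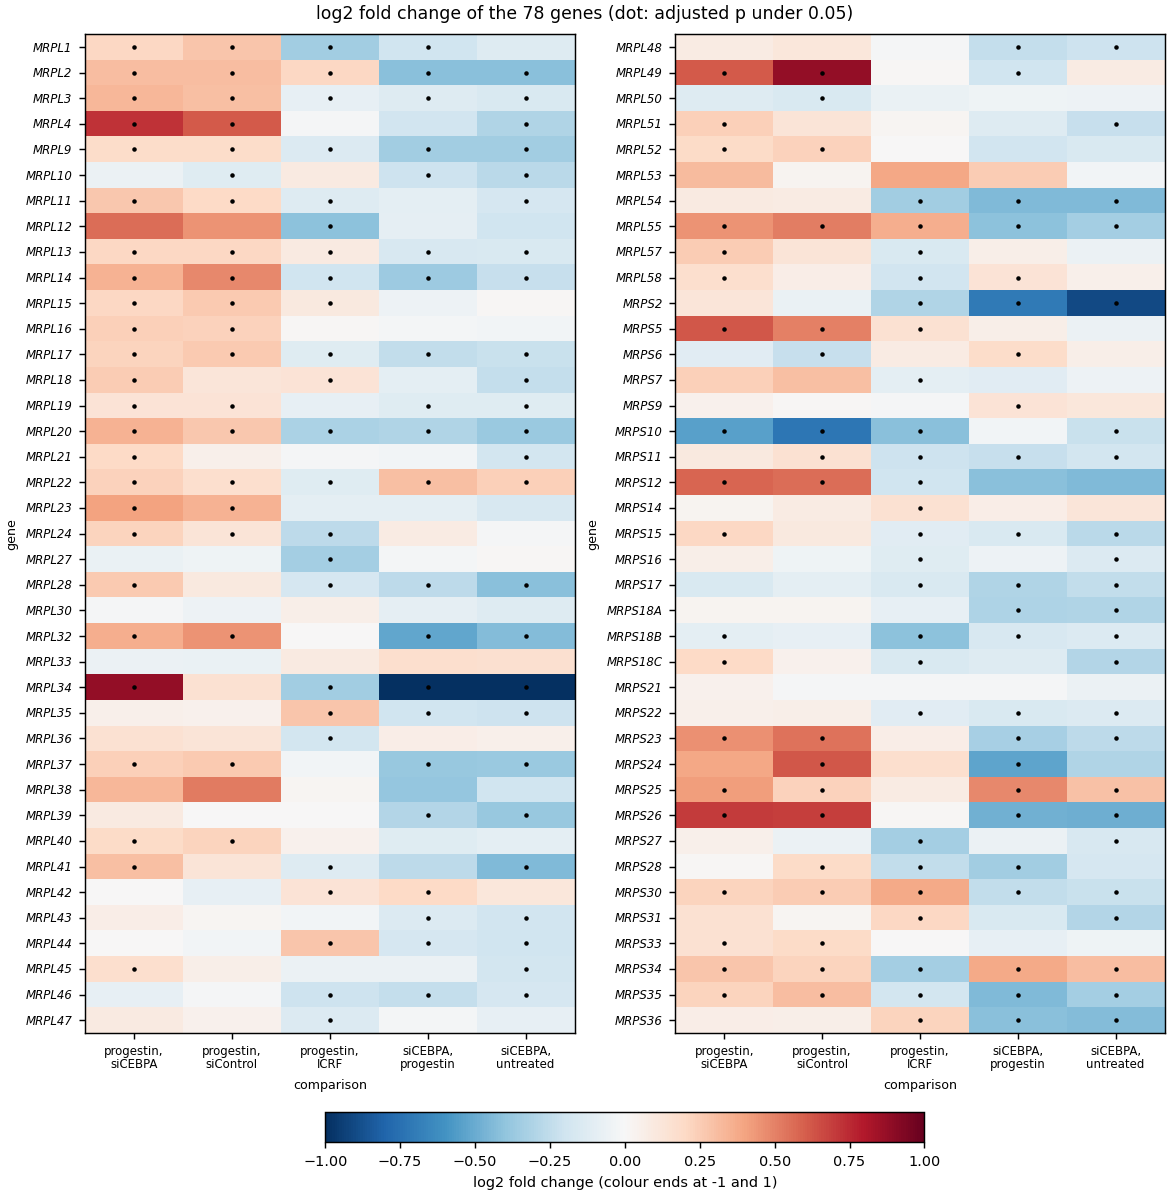
Log2 fold changes of all 78 genes in 5 comparisons, with colour limited to the range -1 to 1 and a dot where the adjusted p was under 0.05. Rows are genes and columns are comparisons. The 2 progestin columns for siRNA cells are mostly warm (42 and 34 rises) and the 2 CEBPA siRNA columns mostly cool (37 and 45 falls), with MRPL34 darkest there. By library totals alone, the rises numbered 14 and 14.

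**Figure D5:**
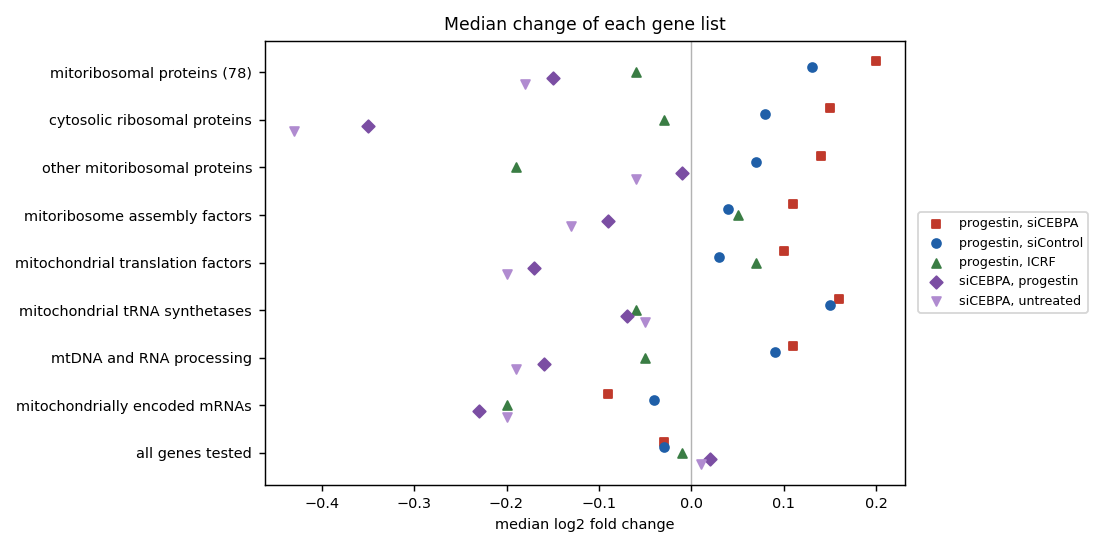
Median log2 fold change of each gene list in 5 comparisons. The cytosolic ribosomal protein genes lie lowest with CEBPA siRNA (-0.43 and -0.35), and the 78 mitochondrial members at -0.18 and -0.15. The list of other mitoribosomal proteins shares MRPL57 and MRPL58 with the members. All positions shift with the scaling, and medians of all genes stand in the lowest line.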

How the data were processed

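RNA was sequenced from T47D cells as stranded paired libraries, per the labels' protocols. The deposited values are raw counts of read pairs per gene, made with featureCounts 1.5.1 with the reverse-strand setting and GENCODE 24 on hg38 from STAR alignments, per the file headers. Reads were trimmed with Trimmomatic, per the submitters' processing notes. The header shows no option for reads that map to several places, so near-identical copies are uncertain. Ensembl identifiers were given symbols from a gene name table for 41209 genes (68.1%), which held 99.64% of counts. The members, gene lists and tests were chosen with earlier results of these data known. The series' 18 ChIP-seq samples are not analysed here.

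Low-count genes were left out with filterByExpr, libraries were scaled with TMM factors, and edgeR 4.0.16's robust quasi-likelihood test was run on all genes (R 4.3.3) and p-values were adjusted by Benjamini-Hochberg, with calls at 0.05. The 8 siRNA libraries were fitted together (18351 genes, 4 residual degrees of freedom), the 4 ICRF libraries apart (18556 genes, 2) and all 12 for the difference of responses (19003 genes, 6). Standard errors were taken from the log2 fold change and its F statistic. CPM levels used TMM factors over the 12 libraries. Replicates had a Pearson r of 0.9983 to 0.999 over log2 CPM and differed by more than counting noise. Counting error is small at these depths, and the number of libraries limits the precision.

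The text names the 5 largest called rises and falls per comparison, MRPL12, the S18 paralogues, and MRPL34 with genes within 50 kb of it. It also names CEBPA as the check of its siRNA, the extremes of level per length, and genes among the 3 smallest p-values of other lists. MRPS23 and members listed by their pattern of calls are named beyond this rule. On simulated counts for the siControl progestin contrast (17877 genes), 43.5% of 69 genes changed 1.2-fold, 93.7% of 63 changed 1.5-fold and 100% of 68 changed 2-fold were recovered. Recovery at 1.2-fold and 1.5-fold was lower for the differences of responses, at 11.8% and 85.9% for siCEBPA minus siControl (17884 genes) and 12.5% and 83.8% for ICRF minus siControl (18255 genes). The simulation changed only those genes and gave every gene the same relative spread between libraries. In the real siControl contrast 29.2% of genes rose and 29.3% fell, so recovery in the real data can differ. Promoter windows, from 250 bases before to 50 after the start, came from RefSeq. The alternatives tried were DESeq2's median-ratio factors, upper-quartile factors, no scaling factors, no filter on low counts, DESeq2 1.42.0's Wald test, the replicate number as a block, all 12 libraries in 1 fit, and leaving out each library in turn. Without 1 library, an arm of 1 was assumed to vary like the other groups.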

Additional observations from a re-analysis of the deposited data

Results flagged for a closer look

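The progestin response differed between siCEBPA and siControl cells, by the interaction in edgeR's quasi-likelihood fit, for 1 member higher and 1 lower of 78. That is 1.28% each way, against 4.19% and 3.06% of all genes. MRPL34's response was 0.73 larger in siCEBPA cells on the log2 scale. Its call was lost without siControl progestin replicate 1 (0.74) and without siCEBPA untreated replicate 1 (0.64). MRPL49's was smaller, with a difference of -0.27. The MRPL34 gene overlaps ABHD8 on the other strand. Counting used strand, and the part of that overlap in the MRPL34 values was not tested.

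The response also differed between ICRF and siControl cells, as differences of log2 changes in the fit of 12 libraries. It was higher for 6 members (7.69%, against 24.9% of all genes) and lower for 41 (52.6%, against 24%). Without scaling factors these counts became 14 and 23. The parts of ICRF, siRNA, arrest and time label in this difference cannot be separated. The lower members with the largest size were MRPL49 at -0.87, MRPL12 at -0.86, MRPS12 at -0.75, MRPL14 at -0.68 and MRPS26 at -0.67. Of these, MRPL12 had a standard error of 0.29, and its call was lost in 10 of the alternatives run. It also shares 68.2% of its exonic bases with another gene on the same strand. The higher ones were MRPS6 and MRPL44 at 0.32, MRPS10 at 0.31, MRPL35 at 0.24, MRPL42 at 0.22 and MRPL10 at 0.21. MRPL35 and MRPL42 lost their calls without siControl untreated replicate 1 and without ICRF progestin replicate 2.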

How the results depend on the processing

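Scaling factors shift all genes of a contrast about alike. The distance of the members' median from that of all genes therefore could not change with them. With no filter on low counts that distance was 0.13 for progestin in siControl cells, against 0.17. The counts in each direction did move with the scaling. With upper-quartile factors, progestin gave 22 rises and 13 falls in siControl cells, 17 and 10 in siCEBPA cells and 7 rises in ICRF cells, and CEBPA siRNA gave 8 rises in untreated cells. With no scaling factors, progestin gave 14 rises and 21 falls in siControl cells and 14 and 17 in siCEBPA cells. CEBPA siRNA then gave 11 rises and 25 falls in untreated cells and 11 and 24 in treated cells, and ICRF minus siControl 14 and 23. MRPL34 in siControl cells then changed sign, to -0.00 (adjusted p = 0.975). The falls with progestin numbered 2 in siControl cells with no filter and with DESeq2's Wald test, and 1 in siCEBPA cells with those, with median-ratio factors and with 12 libraries. That larger fit gave 2 higher for siCEBPA minus siControl.

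Without each library in turn, progestin rises numbered 26 to 35 in siControl, 33 to 45 in siCEBPA and 8 to 15 in ICRF cells, and falls 2 to 4, 1 to 2 and 21 to 34. With CEBPA siRNA, rises numbered 2 to 4 in untreated and 3 to 8 in treated cells, and falls 30 to 46 and 28 to 40. For siCEBPA minus siControl, 0 to 2 were higher and 1 to 1 lower. For ICRF minus siControl these were 4 to 7 and 32 to 49. The cause of these shifts was not tested.

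Same-numbered replicates deviated together with an r of 0.0125 to 0.24 among siRNA groups and 0.0313 with ICRF, so the numbers were not taken to pair libraries. With the replicate block, CEBPA siRNA gave 7 rises in untreated cells and siCEBPA minus siControl 4 higher. The alternatives were also read for 63 results, of which 5 were summed levels and the rest were changes of named genes. The siControl progestin changes of MRPS23, MRPL55 and MRPS5 were not among them. Of 873 alternatives, 807 left the result the same, and 61 calls were lost, in 15 results. For a gene, the same means direction and side of the threshold. For a summed level it means a shift within the spread between libraries. With no scaling factors, 4 summed levels shifted further and 1 gene result changed sign.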
